A study of Homo sapiens with 2 samples.

Results

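Small nuclear RNAs (snRNAs) of the spliceosome were compared between wild type SK-ES1 cells and their radiation-adapted derivative. The members were 7 listed genes, RNU1-1, RNU1-3, RNU4-1, RNU4-2, RNU5A-1, RNU11 and RNU4ATAC, matched by symbol in the platform's probe annotation. They are 7 of 20046 genes named on the array and hold 8 of its 47323 probes, since RNU11 has 2 probes and the others 1 each. SK-ES1 is a human Ewing sarcoma line whose tumour cells make the fusion transcription factor EWSR1-FLI1. Total RNA of each line was amplified, labelled and read on 1 Illumina BeadChip array, so each group held 1 array. The adapted line's label carries the value 4 Gy, and the labels do not say how that radiation was given or whether the line is 1 clone. The differences therefore have no replicate spread to set them against, and they are given as values without tests.

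The spliceosome removes introns from pre-mRNA and is built from particles that each hold an snRNA and a set of proteins. In the major spliceosome, U1 pairs with the 5′ splice site, U2 with the branch point, and U4, U5 and U6 enter together as the tri-snRNP, in which U4 holds U6 inactive until it is released. A minor spliceosome, with U11, U12, U4atac and U6atac beside the shared U5, removes a rare class of introns. RNA polymerase II makes all of these RNAs except U6 and U6atac, which RNA polymerase III makes. None carries a poly(A) tail, and the amplification kit named in the labels starts from an oligo(dT) primer.

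Raw bead signals had a median of 137 in the wild type sample and 139.3 in the radiation-adapted sample. Probes whose detection p-value lay midway between 0 and 1 had median signals of 126.3 and 127.2, which is taken here as each array's background level. A probe was called detected at a detection p-value under 0.01, which was given to 33.6% and 32.5% of probes. All 9 Ewing sarcoma markers on the array were detected on at least 1 array, among them CD99 and NKX2-2. Of these, 8 had a log2 ratio above 0. Over the whole array 10189 of 20046 genes were detected, and 46.6% of the detected genes were above 0. Of markers of other cell types, 1 of 6 epithelial, 1 of 4 leukocyte, 0 of 4 endothelial and 3 of 6 fibroblast genes were detected. The fibroblast genes did not move one way: the collagen gene COL1A2 was at 1.10, with its other detected probe of opposite sign, COL3A1 at 0.17 and DCN at -0.59. The references ACTB and GAPDH had log2 ratios of -0.07 and -0.09.

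All 7 snRNAs had a higher signal in the radiation-adapted cells. The 3 detected on both arrays were 2.04-fold (RNU4ATAC), 3.94-fold (RNU1-1) and 4.75-fold (RNU1-3) higher. The other 4 were not detected in wild type cells on the probe that represents them. On that probe their ratios have only a bound, from at least 1.67-fold (RNU5A-1) to at least 6.84-fold (RNU11). The other RNU11 probe was detected on both arrays and gave a lower ratio, 4.99-fold. The bound sets the bright signal against the higher of the gene's own signal and the lowest detected signal on the other array. Ratios are radiation-adapted over wild type, after background correction and quantile normalization of the arrays. The median log2 ratio of the 7 was 1.93 with those 4 at their bound and 2.20 by measured ratio, against -0.02 and -0.04 over the 10189 detected genes. By measured ratio all 7 were at least 2-fold higher, whereas 410 detected genes, or 4.02%, were. Counted at the bounds, these figures were 6 of 7 and 2.93%. Earlier results were already known when the members were chosen, so their counts are no test against the shares of all detected genes. Further, 4 of the 7 were counted as detected by their radiation-adapted signal only. Of all genes so counted, 35.0% passed 2-fold by measured ratio and 10.2% at the bound. Of 6 other snRNAs on the array 4 were detected, and 3 of those were at least 2-fold higher. Measured ratios of 4-fold or more were found for 4 of the 7 snRNAs and 0.412% of all detected genes. Of these 4, RNU1-3 alone was detected on both arrays by the probe that represents it. At their bounds RNU4-2 was at least 3.81-fold and RNU4-1 at least 2.21-fold higher, both below 4-fold. The ratios depended on the background correction, since without it 4 of 7, and 1.06% of all detected genes, were past 2-fold and the median was 1.08. More RNA per cell and more cells that hold the RNA cannot be told apart in these bulk samples.

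**Figure D1:**
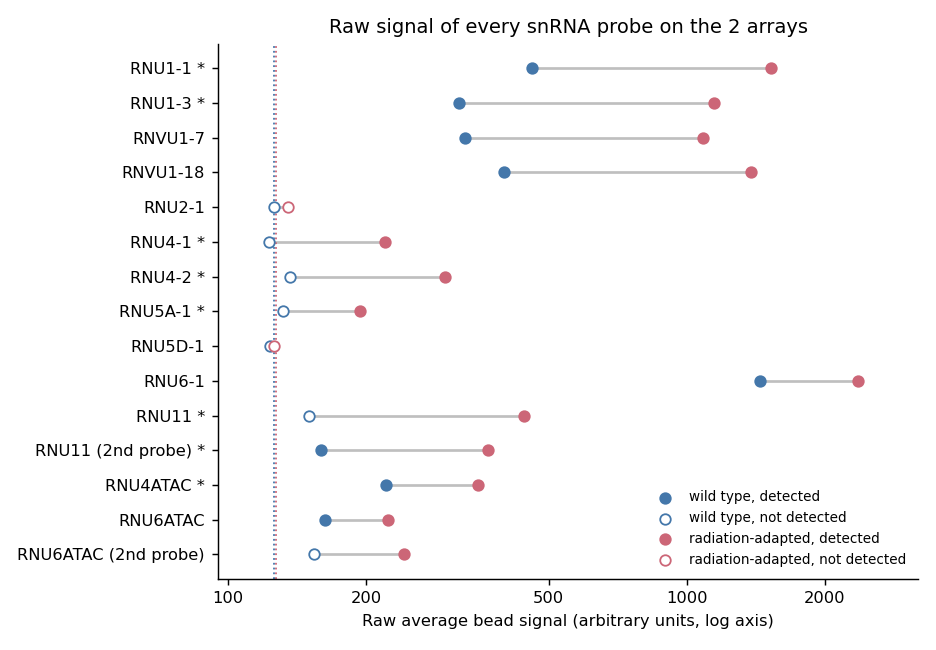
Raw average bead signal (arbitrary units, log axis) of each snRNA probe on the wild type array (blue) and the radiation-adapted array (red). Filled points have a detection p-value under 0.01, open points do not, asterisks mark the 7 listed genes, and dotted lines mark the background levels of 126.3 and 127.2. Every listed probe lies further right on the radiation-adapted array, while RNU2-1 and RNU5D-1 stay near background on both.

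Both U1 members, whose RNA marks the 5′ splice site, were detected in both lines and were higher in the radiation-adapted cells. RNU1-1 had a raw signal of 459 in wild type cells and 1528 in radiation-adapted cells, a 3.94-fold normalised ratio. RNU1-3 went from 319 to 1145, a 4.75-fold ratio, and 20 of the 10189 detected genes had a higher one. Both probes stood well clear of background in both lines, so these ratios are measured on both sides. Other U1 genes on the array gave like values: RNVU1-7, a variant U1 gene, had signals of 328 and 1083 (4.28-fold). RNVU1-18, also a U1 variant, had 399 and 1381 (4.25-fold). The 4 log2 ratios ran from 1.98 to 2.25. U1 copies are nearly identical in sequence, so these probes may read the same RNA, and they are not 4 independent measurements.

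The U4 genes were detected in the radiation-adapted cells alone. RNU4-1 had a raw signal of 122.8 in wild type cells, at background, and 219.7 in radiation-adapted cells. RNU4-2 had 136.6, with a detection p-value of 0.156, and 297.4. By the bound RNU4-1 was at least 2.21-fold higher and RNU4-2 at least 3.81-fold higher. The bounds hold for this normalization and make no allowance for measurement error: without background correction RNU4-1 was 1.74-fold and RNU4-2 2.11-fold higher. The 2 U4 copies are also near-identical, so their signals may mix.

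U5 is the snRNA that aligns the exons for joining and serves both spliceosomes. RNU5A-1 had a raw signal of 132.2 in wild type cells, not detected, and 194.0 in radiation-adapted cells. Its bound was at least 1.67-fold higher, below the 2-fold rule that its measured log2 ratio of 1.59 passed, and it was 1.43-fold higher without background correction. In radiation-adapted cells it lay 66.8 units above background.

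The minor spliceosome RNAs RNU11 and RNU4ATAC both had higher signals in the radiation-adapted cells. U11 recognises the 5′ splice site of minor introns, as U1 does in the major class. The brighter RNU11 probe had a raw signal of 150.2 in wild type cells, with a detection p-value of 0.0182, and 441 in radiation-adapted cells. Its bound was at least 6.84-fold higher, but it was 2.85-fold higher without background correction. The other RNU11 probe was detected on both arrays, with 159.9 and 369.8, and gave a lower value of 4.99-fold. Of the 10189 detected genes 18 had a higher ratio, RNU11 itself included through its brighter probe. The measured log2 ratios of the 2 probes had the same direction and differed by 0.68. RNU4ATAC, the U4 counterpart of the minor spliceosome, had signals of 221.3 and 351.5, a 2.04-fold ratio. It was detected on both arrays and stood close to the 2-fold line, with 386 genes above it. Without background correction RNU4ATAC was 1.52-fold higher, below that line.

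**Figure D2:**
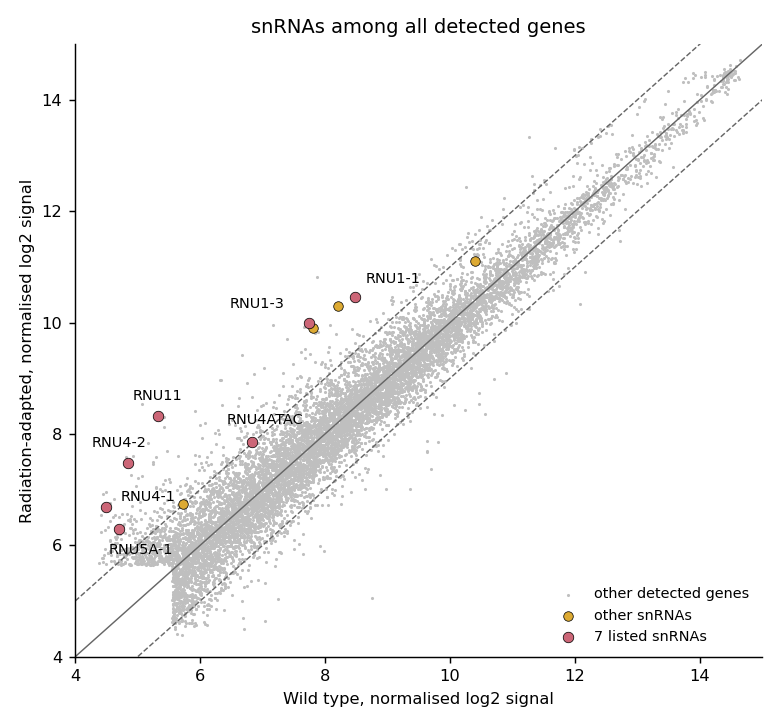
Normalised log2 signal of each detected gene in wild type cells (x axis) and radiation-adapted cells (y axis), 1 array each. The solid line marks equal signals and the dashed lines a 2-fold difference. The 7 listed snRNAs (red) lie above the upper dashed line, and other snRNAs (yellow) lie above the solid line.

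How the members entered the detected set matters for reading their count. RNU1-1, RNU1-3 and RNU4ATAC were detected on both arrays, and all 3 passed 2-fold, as did 2.77% of the 9144 genes detected on both. Their ranks by ratio among those genes were 21, 9 and 237. These 3 were also chosen with earlier results known, so their count and ranks are no test. On the probe that represents them, the other 4 were taken as detected through the radiation-adapted array alone, where a higher signal is built into the choice. Of 449 such genes, 449 were above 0, 35.0% passed 2-fold by measured ratio and 10.2% passed it at the bound. RNU11, RNU4-2, RNU4-1 and RNU5A-1 ranked 2, 11, 35 and 86 by bound among the 449. Of 31436 probes not detected in wild type cells, 2 were as bright in radiation-adapted cells as the RNU11 probe, itself included. The corresponding counts were 16 for RNU4-2, 53 for RNU4-1 and 149 for RNU5A-1. Of the 31436 probes 30521 were detected on neither array, and the 4 members were counted as detected through this same signal. Low counts are therefore largely built in and are no test.

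The spread used for a ratio was that between probes of the same gene. Such probes are read on the same arrays, so it holds no variation between samples or arrays. Over 2567 genes with more than 1 detected probe, the log2 ratios of the 2 brightest probes differed with an SD of 0.466. Of the 3 members detected on both arrays, RNU1-3 at 2.25 and RNU1-1 at 1.98 were closer than that SD, and RNU4ATAC at 1.03 lay below both by more than it. The other 4 have no settled place in the order. At their bounds they stood at 2.77 (RNU11), 1.93 (RNU4-2), 1.14 (RNU4-1) and 0.74 (RNU5A-1). The last is below RNU4ATAC, although its measured ratio is above it. The other RNU11 probe, detected on both arrays, was at 2.32, below the bound of the brighter probe.

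**Figure D3:**
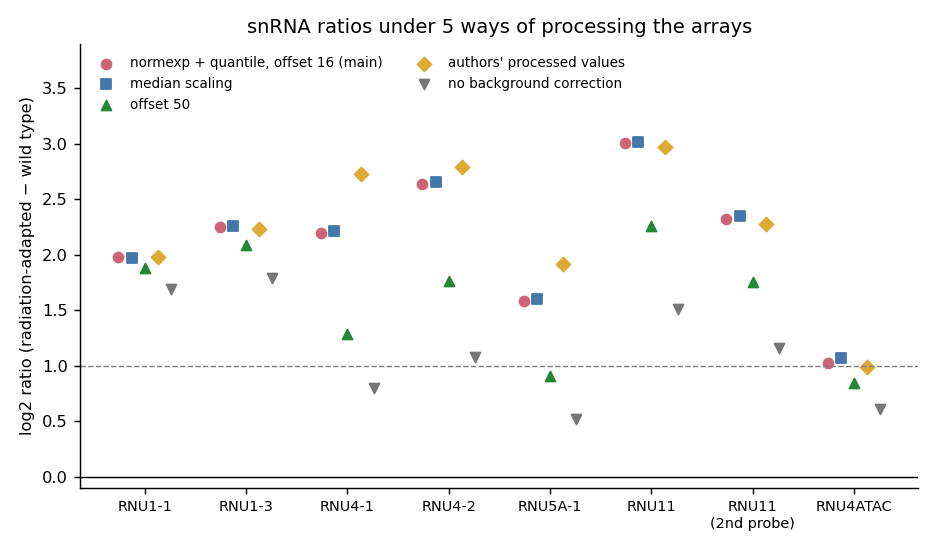
Log2 ratio (radiation-adapted minus wild type) of each probe of the 7 listed snRNAs under 5 ways of processing the arrays; the dashed line marks 2-fold. Each point lies above 0. The U1 probes move little, from 1.69 to 2.26 in all, while the probes near background in wild type cells (RNU4-1, RNU4-2, RNU5A-1 and both of RNU11) fall by more than 1 without background correction.

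Other snRNAs on the array included those made by RNA polymerase III. RNU6-1, an RNA of the catalytic core, had raw signals of 1442 and 2362, a 1.64-fold ratio, and did not reach 2-fold. RNU6ATAC, its minor counterpart, had 162.6 and 223.2 on its brighter probe, a 2.01-fold ratio. The other RNU6ATAC probe had 154.5, just short of detection, and 241.9, which gave at least 2.66-fold. The log2 ratios of these 2 genes were thus 0.72 for RNU6-1 and, on its brighter probe, 1.01 for RNU6ATAC. All 4 U1 genes, made by RNA polymerase II, lay above them, but RNU4ATAC at 1.03 and the bound of RNU5A-1 at 0.74 did not stand apart from them. RNU4ATAC and RNU6ATAC pair with each other in the minor tri-snRNP, and the ratio of RNU4ATAC was 0.02 above the brighter RNU6ATAC probe and below the bound of the other, 1.41. RNU2-1, the U2 gene that recognises the branch point, had signals of 126.1 and 135.3 and was detected on neither array. RNU5D-1, with 123.7 and 126.4, was not detected either, so neither probe gives a ratio.

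Transcripts of the proteins that bind these RNAs stayed near the level of other genes. Of 56 detected genes in lists of Sm ring, U1 and U2, tri-snRNP, LSM ring and minor spliceosome proteins, 25 were above 0, 0 were at least 2-fold higher and 1 was at least 2-fold lower. Their median log2 ratio was -0.06, against -0.04 over all detected genes, of which 46.6% were above 0 and 2.07% at least 2-fold lower. Sm ring proteins, which form the core of each particle except U6 and U6atac, had a median of -0.09 over 8 genes, with SNRPD1 at -0.57 and SNRPB at -0.32. The U1 and U2 proteins had a median of -0.18 over 14 genes, between SF3A2, part of the U2 particle, at -0.80 and PHF5A at 0.49. For the tri-snRNP proteins the median was -0.04 over 15 genes, with the U5 GTPase gene EFTUD2 at -0.43 and the U4/U6 protein gene PRPF3 at 0.47. The LSM2-8 ring, which binds U6, had a median of 0.04 over 7 genes, with LSM4 at -0.47 and LSM7 at 0.12.

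Proteins of the minor spliceosome had a median of -0.04 over 12 genes and a wider range. ARMC7, known as a partner of the minor spliceosome factor RBM48, was the 1 gene past 2-fold, with raw signals of 381 and 246 and a log2 ratio of -1.10. SNRNP48 and PDCD7, both proteins of the U11 and U12 particle, stood highest, at 0.95 and 0.63. The raw signals of SNRNP48 were 179.3 and 253.6, and those of PDCD7 were 13733 and 22262. Neither reached 2-fold.

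Genes that make and mature snRNAs were also near the level of other genes. Factors of snRNA gene transcription had a median of -0.03 over 10 genes, 5 of them above 0, with SNAPC1 at 0.48 and SNAPC2 at -0.59. Both encode subunits of the complex that binds the proximal element of snRNA promoters, and the other detected probe of SNAPC1 had the opposite sign. Integrator, the complex that cleaves the 3′ end of nascent snRNAs, had a median of -0.19 over 13 genes, with 3 above 0. Its ends were INTS3 at 0.69 and INTS6 at -0.65, and the other detected probe of INTS6 had the opposite sign. Genes of snRNA export, cap modification and particle assembly had a median of -0.15 over 24 genes, with 7 above 0. The highest were PHAX, the export adaptor for snRNAs, at 0.78 with its 2 other detected probes also above 0, and GEMIN4, of the SMN assembly complex, at 0.76. The lowest were GEMIN2, of the same complex, at -0.59 and TGS1, which makes the trimethyl cap, at -0.52. None of the detected genes in these 3 lists was at 2-fold in either direction.

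**Figure D4:**
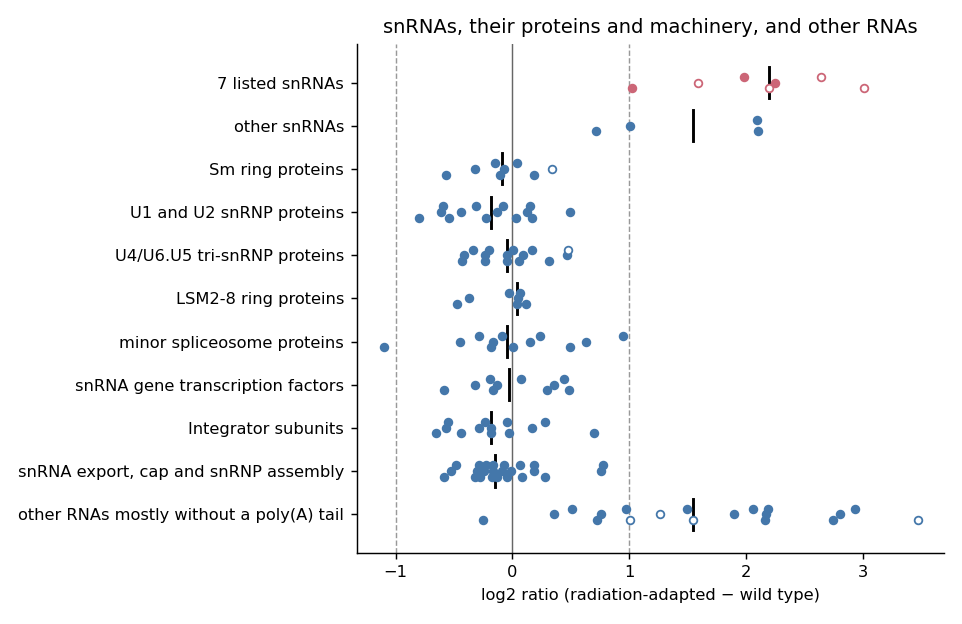
Log2 ratio (radiation-adapted minus wild type) of each detected gene of 11 lists, with black bars at the list medians and dashed lines at 2-fold. Filled points were detected on both arrays and open points on 1. Both snRNA lists and the RNAs mostly without a poly(A) tail have medians of 1.55 to 2.20, while the lists of proteins have medians of -0.19 to 0.04.

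Other RNAs that mostly lack a poly(A) tail were higher on the same array. Of 25 such genes on the array 19 were detected, 18 were above 0, 13 were at least 2-fold higher by measured ratio and 10 at the bound, with a median log2 ratio of 1.55, or 0.78 without background correction. The 18S, 28S and 5S ribosomal RNA probes stood at 2.19, 2.06 and 2.16, close to the U1 probes. The highest were 3 small nucleolar RNA genes. SNORD3C was at 3.47, the highest measured ratio of all detected genes, with a bound of 2.99. SNORD3D was at 2.94, the highest among genes detected on both arrays, and SNORD3A at 2.80. RN7SK, the RNA that holds back transcription elongation, was at 2.74, and RPPH1, the RNA of RNase P, at 2.17. High ratios were thus not particular to the snRNAs. The list was not uniform: RN7SL1, the RNA of the signal recognition particle, was at 0.51, and the Cajal body RNAs SCARNA13 and SCARNA10 were at 0.35 and -0.25. Replication-dependent histone genes, whose mRNAs mostly end without a tail, gave 12 detected genes with a median of 0.56, of which 8 were above 0. Of the 12, 3 were at least 2-fold higher: H2AC18 (1.44), H2AC6 (1.33) and H2BC5 (1.23). Over all detected genes 46.6% were above 0 and 4.02% at least 2-fold higher. The part that recovery or priming of RNA without a tail had in the snRNA ratios was not tested, and with 1 array per line it cannot be told apart from a difference between the lines.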

How the data were processed

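Total RNA was extracted with Trizol and labelled with an Illumina TotalPrep kit, per the labels' protocols. The authors deposited raw average bead signal intensity and a detection p-value per probe, per the file headers, and a table of processed intensity; how it was made is not given in the sources used here. That table's sorted columns differ by at most 0.2 and hold values below 0, so it was read as background-subtracted and quantile-normalized, and used as an alternative only.

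Raw signals were processed with limma 3.58.1 (R 4.3.3): neqc, which fits the normexp background from detection p-values, adds an offset of 16, quantile-normalizes and takes log2. The offset makes folds of dim probes smaller. Python 3.11.15 was used afterwards. The annotation gave 1 gene for 30113 of 47323 probes; the 8 with several genes and the 17202 that are unnamed here were left out of gene counts. RefSeq GRCh38.p14 was used to update symbols and to find genes that overlap the snRNA genes; no coordinate is given because the array files name no build. A gene was represented by its brightest probe. Signals of different probes were not compared as RNA levels, though raw signals were used to count probes as bright as a member's probe. Named genes were the members, other snRNAs, RNAs mostly without a poly(A) tail, the 2 highest and 2 lowest of each other list and any past 2-fold; the marker and reference genes; and the 5 genes nearest the members' median. Members and lists were chosen with earlier results of these data known. The normalization and the gene rule were tested on simulated data, with increases set only in genes detected on the wild type array. Changes in genes not detected there, and the bounds, were not covered. Precision is limited by the number of arrays.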

Additional observations from a re-analysis of the deposited data

How the results depend on the processing

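Each member probe kept a ratio above 0 under the 4 other normalizations. The count of members at 2-fold or more, 7 as reported, was 4 without background correction, 3 (of the 3 then counted) among genes detected on both arrays, and 4 at a 4-fold rule. It was 5 with an offset of 50 and 6 with the authors' processed values. Counting a gene detected on 1 array at its bound, an alternative chosen after seeing the data, it was 6 and the median log2 ratio 1.93. The median was 1.08 without background correction and 1.76 to 2.23 under the other alternatives. The U1 probes ranged from 1.69 to 2.26, while RNU5A-1, near background in wild type cells, ranged from 0.52 to 1.92 and RNU4-1 from 0.80 to 2.73. RNU4ATAC ranged from 0.61 to 1.07, on both sides of the 2-fold line. Of all detected genes, 108 were at least 2-fold higher without background correction and 213 with an offset of 50. The median of RNAs mostly without a poly(A) tail was 0.78 without background correction, against 1.55. List medians changed sign in 3 of 104 values: tri-snRNP proteins (0.01 with the median of a gene's probes), and leukocyte (0.10) and fibroblast markers (-0.12) at a detection p-value under 0.05. No paired analysis was possible because each group holds 1 array. Signal over background limits the ratios of RNU4-1, RNU4-2, RNU5A-1 and RNU11.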

Other observations

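Of 5 genes that overlap snRNA genes in RefSeq, looked up after the values were seen, 2 were detected. Both had lower log2 ratios than the snRNA genes they overlap. RNU4-1 and RNU4-2 overlap SIRT4, a mitochondrial sirtuin gene. Its raw signals were 238.4 in wild type and 250.3 in radiation-adapted cells, a log2 ratio of 0.02. RNU4ATAC overlaps CLASP1, a microtubule regulator gene, with 443.7 and 561.6 and a log2 ratio of 0.38. Strand was not considered in this overlap, and whether 1 gene lies wholly within the other was not checked.

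Of genes detected on both arrays, those whose log2 ratio lay nearest to 1.98, the median of the 3 members detected on both, were protein-coding. They were KIF1A, a kinesin of axonal transport (1.97), MGP, a matrix protein that limits calcification (1.95), SCNN1G, a sodium channel subunit (1.94), ACTG2, the smooth muscle gamma actin (2.02), and GRM2, a glutamate receptor (1.90). RNAs that are not protein-coding were also close: 28S ribosomal RNA (2.06), the small nucleolar RNA gene SNORD13 (1.89) and the U1 variant RNVU1-18 (2.09). The nearest genes are thus not set apart from such RNAs. Each likeness rests on 1 ratio over 2 arrays.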
